A study of Homo sapiens with 16 samples.

Results

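The aminoacyl-tRNA synthetases examined here were 35 genes, 19 for enzymes of the cytoplasm and 16 for enzymes of the mitochondrion. They were taken by symbol from the array's annotation, with 1 probe set per gene, the one with the highest mean over all arrays. All 35 passed the filter on dim probe sets, among 12495 genes tested and 18132 genes on the array. In 4 h, the phorbol ester PMA lowered 10 of the 16 mitochondrial synthetase transcripts, led by HARS2, against 29.3% of all genes. Of the 19 cytoplasmic ones 14 did not pass the test in either direction, where 47.0% of all genes passed. Among the cytoplasmic ones AARS1 fell furthest, second to HARS2 over both compartments.

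An aminoacyl-tRNA synthetase joins an amino acid to its matching tRNA, the step that fixes the genetic code. For most amino acids a separate nuclear gene encodes the mitochondrial enzyme, marked by a final 2 in the symbol. This enzyme serves translation in the mitochondrion. GARS1 and KARS1, for glycine and lysine, serve both compartments. Several cytoplasmic enzymes sit together in the multisynthetase complex. Many cytoplasmic synthetase genes are known targets of ATF4, the transcription factor of the amino acid response.

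The cells were HEK293, a human embryonic kidney line, all transfected for 24 h with 500 ng per well of a plasmid for the mineralocorticoid receptor (MR). They were then treated for 4 h with DOC plus PMA, with 10 nM PMA, with 100 nM DOC (deoxycorticosterone acetate, an MR agonist) or with vehicle. A serum content of 10% is recorded for all groups. PMA turns on protein kinase C in place of the cell's own diacylglycerol. Each group had 4 arrays, numbered by the labels as biological replicates, and every group carried the receptor plasmid. Cells without the plasmid were not analysed here. The series asks how this receptor acts on AP-1 signalling.

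Signals are log2 RMA values, so a difference of 1 is a doubling or a halving, and signals of different probe sets are not compared as levels. Well-known target genes of both agents changed: FOS differed by 5.65 ± 0.112 (SE) between PMA and vehicle, and PDK4 by 1.92 ± 0.151 between DOC and vehicle. NR3C2, the gene of the receptor, had group means of 7.02 to 7.43. Of the 4 HEK293 markers tested, NEFL, NEFM and INA were well above the array medians of 4.91 to 4.96, and PAX2 was close to them at 4.53 to 4.93. With PMA against vehicle NEFM (2.51) and INA (0.28) were higher and NEFL (-0.45) was lower, and the mean of the 4 was 7.89 to 8.08 on PMA arrays and 7.35 to 7.55 on vehicle arrays. Of 15 markers of leukocytes, endothelium and fibroblasts, 6 did not pass the filter (PTPRC, CD3E, CDH5, COL3A1, DCN and LUM). Of the 9 tested, 5 were higher with PMA than with vehicle and 1 was lower, against 17.7% and 29.3% of all genes. With DOC plus PMA against DOC 1 of the 9 was higher, against 15.7% of all genes. Over its 5 markers, the leukocyte list averaged 4.80 to 4.91 on PMA arrays and 4.57 to 4.78 on vehicle arrays. The endothelial list averaged 4.37 to 4.50 on PMA arrays, 4.15 to 4.36 on vehicle arrays and 4.39 to 4.44 on DOC arrays. The fibroblast list averaged 3.25 to 3.44 on PMA arrays and 3.23 to 3.43 on vehicle arrays. LCP1, an actin-bundling protein of leukocytes, was the bright exception at 9.25 with PMA and 9.09 with vehicle. The part of these marker shifts and of other cells in the results was not tested, and fewer cells of a type cannot be told apart from less RNA per cell. In 3 groups 1 array stood apart from its group in a shared way, with correlations of 0.425 to 0.554 between them: replicate 2 of PMA, replicate 2 of DOC plus PMA and replicate 1 of DOC. Without these 3 arrays, 17 of the 35 members passed for PMA against vehicle (CARS2, KARS1 and SARS2 were gained, GARS1 and MARS2 lost) and 15 for DOC plus PMA against DOC (GARS1 and QARS1 were gained).

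PMA changed 16 of the 35 members against vehicle, 3 upward and 13 downward, at an adjusted p under 0.05 in limma. Among all genes tested 47.0% passed, 17.7% upward and 29.3% downward, so the family as a whole lay near the background. The compartments differed in their counts. Of the 16 mitochondrial members 10 were lower and 1 was higher, with a median log2 difference of -0.325, against -0.0417 over all genes. Of the 19 cytoplasmic members 3 were lower and 2 were higher, with a median of -0.0549, which turned to 0.0194 when arrays were set to a common median. PMA lowered 34.1% and raised 18.6% of the 8765 genes whose probe sets fell within the signal range of the mitochondrial members. It lowered 28.1% and raised 22.0% of the 4121 genes within the range of the cytoplasmic members. The difference between the compartments was not tested as such, since the members were chosen with results of these data known.

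**Figure D1:**
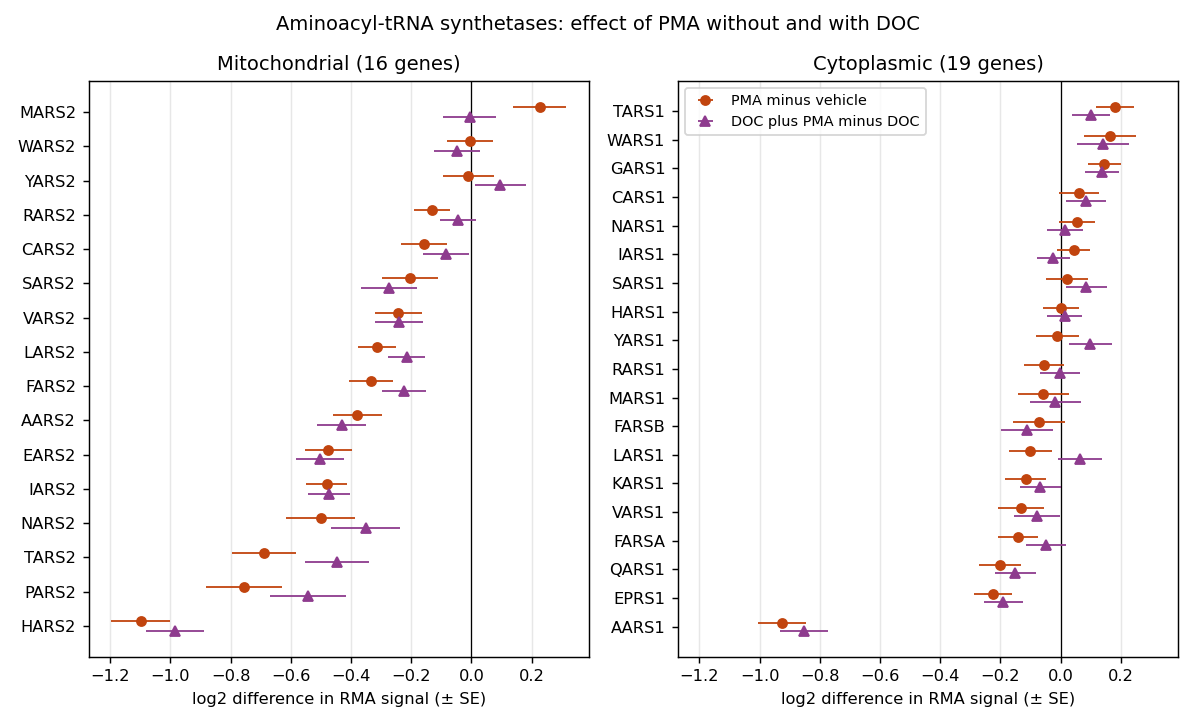
Log2 difference in RMA signal for each of the 16 mitochondrial and 19 cytoplasmic synthetases, PMA minus vehicle (circles) and DOC plus PMA minus DOC (triangles), with standard errors from the limma fit on 4 arrays per group. The mitochondrial genes spread from 0.23 for MARS2 to -1.10 for HARS2 without DOC, while all cytoplasmic genes but AARS1 lie between -0.23 and 0.18.

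HARS2, the mitochondrial histidyl-tRNA synthetase, fell most among the 35 members. Its log2 signal was 5.66, 5.80, 5.93 and 5.99 on the PMA arrays, against 6.88, 6.98, 6.86 and 7.07 on the vehicle arrays. It was 5.68, 5.99, 5.89 and 5.95 with DOC plus PMA, against 6.58, 6.93, 6.97 and 6.96 with DOC. Neither pair of groups overlapped, and DOC replicate 1 was the low array of its group. The difference was -1.10 ± 0.0970 (SE) for PMA minus vehicle, or 0.467-fold (adjusted p = 5.05e-08, limma), and -0.98 ± 0.0970 for DOC plus PMA minus DOC. HARS2 was the only member with a change of at least 2-fold. A further HARS2 probe set gave -1.23.

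HARS1, the cytoplasmic histidyl-tRNA synthetase, is the closest neighbour of HARS2 in the genome. Its signal was 9.64, 9.83, 9.68 and 9.72 on the PMA arrays and 9.71, 9.70, 9.65 and 9.81 on the vehicle arrays, so the groups overlapped throughout. The difference was 0.000748 ± 0.0587 for PMA minus vehicle, with a 95% interval of -0.123 to 0.124. Within single arrays, the HARS2 signal minus the HARS1 signal was -4.03 to -3.73 with PMA against -2.83 to -2.72 with vehicle. With DOC plus PMA it was -4.00 to -3.78, against -3.18 to -2.74 with DOC. These within-array values show unequal change of the 2 transcripts, not their relative amount.

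The histidine genes are read in opposite directions from starts that lie 85 bases apart on chromosome 5 in RefSeq's GRCh38.p14 table, HARS1 at 140691370 on the minus strand and HARS2 at 140691455 on the plus strand. The stretch between both starts is shown because it precedes both genes, of which PMA lowered HARS2. Capitals mark CCGGAAG, the core of sites for ETS transcription factors, on either strand.
HARS1 to HARS2, chr5:140691371-140691454, plus strand: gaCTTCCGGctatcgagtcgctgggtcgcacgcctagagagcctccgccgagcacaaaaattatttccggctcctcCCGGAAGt
This stretch of 84 bases held 2 matches, 1 beside each start, and 59.5% of its bases were G or C.

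The mitochondrial enzymes for proline, threonine and asparagine fell next. PARS2, the prolyl-tRNA synthetase and the member with the lowest mean signal, had 4.85, 5.22, 5.04 and 4.63 with PMA, against 5.57, 5.62, 5.80 and 5.78 with vehicle. With DOC plus PMA it had 5.14, 5.39, 5.25 and 5.13, against 6.01, 5.96, 5.66 and 5.45 with DOC. The PMA groups lay below their counterparts in both pairs, and these signals were close to the array medians. The difference was -0.75 ± 0.126 without DOC (adjusted p = 8.61e-05, limma) and -0.54 ± 0.126 with DOC (adjusted p = 0.00189).

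TARS2, the threonyl-tRNA synthetase, had 7.08, 6.64, 7.28 and 7.18 with PMA, against 7.84, 7.68, 7.63 and 7.78 with vehicle. With DOC plus PMA it had 7.22, 7.08, 7.38 and 7.21, against 7.61, 7.71, 7.76 and 7.61 with DOC. PMA replicate 2 was the lowest array, and the groups did not overlap in either pair. The difference was -0.69 ± 0.107 without DOC and -0.45 ± 0.107 with DOC, and -0.55 without DOC when PMA replicate 2 was left out. A further TARS2 probe set gave -0.75.

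NARS2, the asparaginyl-tRNA synthetase, had 7.56, 7.14, 7.78 and 7.69 with PMA, against 8.08, 8.12, 7.89 and 8.08 with vehicle. With DOC plus PMA it had 7.56, 7.54, 7.75 and 7.61, against 7.76, 7.96, 8.13 and 8.03 with DOC. PMA replicate 2 was again the lowest array. The difference was -0.50 ± 0.114 without DOC (adjusted p = 0.00143, limma) and -0.37 when PMA replicate 2 was left out. With DOC it was -0.35 ± 0.114 (adjusted p = 0.0181), and without DOC replicate 3 it was -0.30 and did not pass (adjusted p = 0.0612).

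IARS2, the mitochondrial isoleucyl-tRNA synthetase, had 9.73, 9.66, 9.83 and 9.90 with PMA, against 10.17, 10.25, 10.25 and 10.37 with vehicle. With DOC plus PMA it had 9.74, 9.80, 9.72 and 9.88, against 10.16, 10.33, 10.29 and 10.26 with DOC. Both PMA groups lay wholly below their counterparts, and the differences of -0.48 ± 0.0682 and -0.47 ± 0.0682 were close to each other. Its cytoplasmic counterpart IARS1 differed by 0.04 ± 0.0555 without DOC and did not pass.

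**Figure D2:**
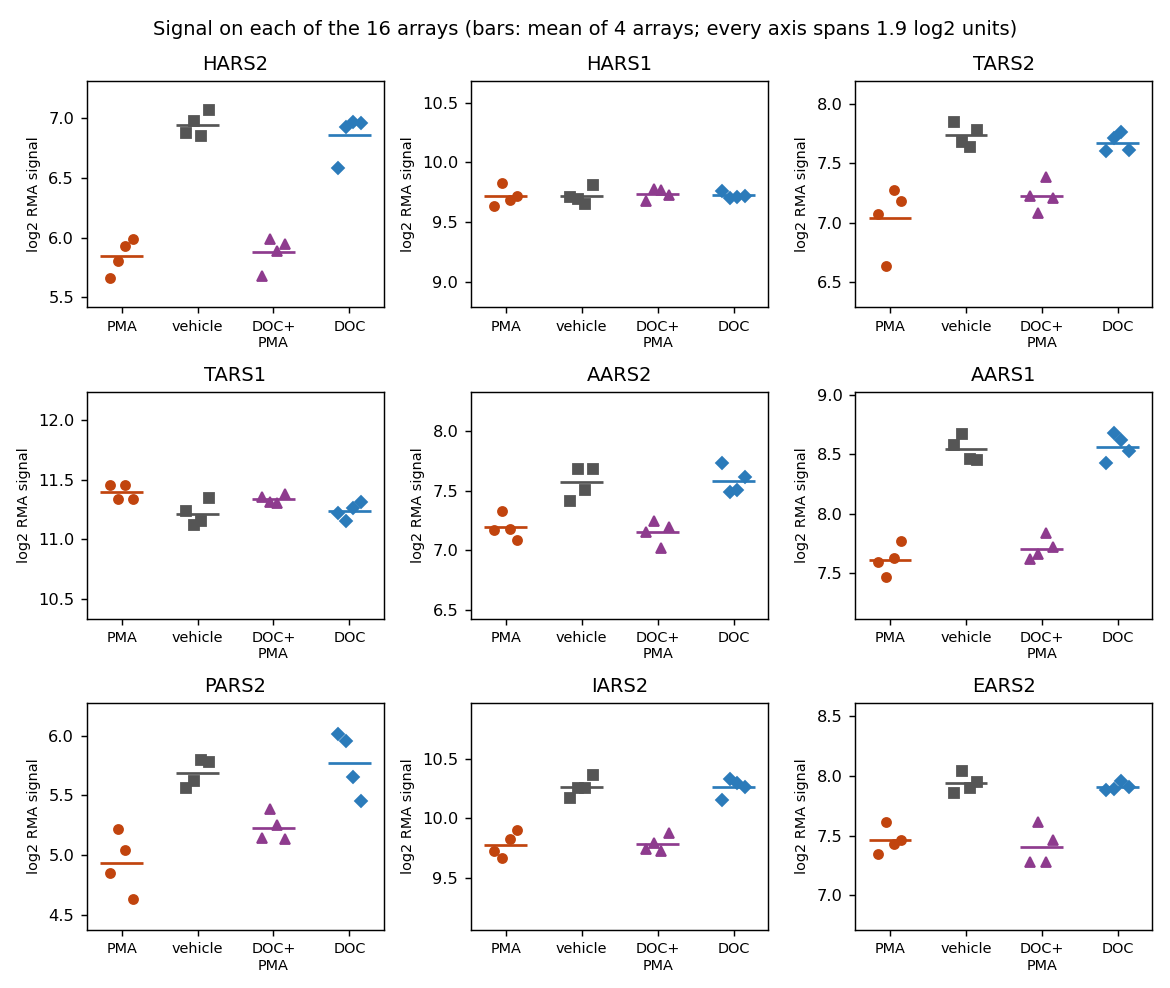
Log2 RMA signal of 9 synthetases on each of the 16 arrays, in the order PMA, vehicle, DOC plus PMA and DOC, with the mean of 4 arrays as a bar and axes that span the same number of log2 units. HARS2, TARS2, AARS2, AARS1, PARS2, IARS2 and EARS2 are lower in both groups with PMA, while HARS1 stays between 9.64 and 9.83.

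The remaining mitochondrial falls were between -0.48 and -0.24. EARS2, the glutamyl-tRNA synthetase that also supplies the precursor of mitochondrial glutaminyl-tRNA, differed by -0.48 ± 0.0788 without DOC and by -0.50 ± 0.0788 with DOC. AARS2, for alanine, differed by -0.38 ± 0.0806 and -0.43 ± 0.0806. FARS2, for phenylalanine, differed by -0.34 ± 0.0730 without DOC and by -0.22 ± 0.0730 with DOC. LARS2, for leucine, differed by -0.31 ± 0.0619 and -0.22 ± 0.0619. VARS2, for valine, differed by -0.24 ± 0.0786 in both pairs. All of these passed in both pairs. The FARS2 call with DOC was lost without DOC replicate 4 (-0.17, adjusted p = 0.0738), after cyclic loess (adjusted p = 0.0647), after a common median (adjusted p = 0.0611) and for the mean of its probe sets (adjusted p = 0.118). The LARS2 call with DOC was lost after cyclic loess (-0.15, adjusted p = 0.0680). Leaving out replicate 1 of PMA gave VARS2 -0.20 (adjusted p = 0.0640) and leaving out replicate 3 gave -0.21 (adjusted p = 0.0557). In the pair with DOC its call was lost when replicate 1 of either group was left out, at an adjusted p of 0.0672 without that of DOC and 0.0561 without that of DOC plus PMA. With cyclic loess between arrays VARS2 differed by -0.16 without DOC (adjusted p = 0.121, limma), and after a common median by -0.17 (adjusted p = 0.0981). In the pair with DOC these 2 settings also lost its call (adjusted p = 0.0884 and 0.0695).

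SARS2, for serine, passed only in the pair with DOC, at -0.27 ± 0.0930 (adjusted p = 0.0236, limma), against -0.21 ± 0.0930 without DOC (adjusted p = 0.0797). Without PMA replicate 2 the value in the absence of DOC was -0.28 and passed (adjusted p = 0.0170). Its call with DOC was lost without DOC replicate 2, DOC replicate 3 or DOC plus PMA replicate 1 (adjusted p = 0.0675, 0.0664 and 0.0858). The same call was lost after cyclic loess and after a common median (adjusted p = 0.0799 and 0.0697, limma). The enzymes for cysteine, arginine, tryptophan and tyrosine did not pass in either pair: CARS2 differed by -0.16, RARS2 by -0.13, WARS2 by -0.01 and YARS2 by -0.01 between PMA and vehicle. A further CARS2 probe set gave -0.30, and the mean of the CARS2 probe sets above the filter gave -0.23 and passed (adjusted p = 0.00604, limma). Further WARS2 probe sets gave 0.13 and 0.15 without DOC, and 0.24 and 0.11 with DOC.

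MARS2, the mitochondrial methionyl-tRNA synthetase, was the 1 mitochondrial member that rose. It had 7.91, 8.21, 8.02 and 7.99 with PMA, against 7.71, 7.73, 7.79 and 7.99 with vehicle, and the groups overlapped, with vehicle replicate 4 above PMA replicates 1 and 4. The difference was 0.23 ± 0.0885 (adjusted p = 0.0431, limma), but -0.01 ± 0.0885 with DOC (adjusted p = 0.965). The other MARS2 probe sets gave -0.06 and -0.14, and their mean with the chosen one gave 0.01 (adjusted p = 0.945). The call was also lost when any of 6 single arrays was left out. For replicates 2, 3 and 4 of PMA the adjusted p was then 0.134, 0.0686 and 0.0554, and for replicates 1, 2 and 3 of vehicle 0.113, 0.109 and 0.0794.

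AARS1, the cytoplasmic alanyl-tRNA synthetase, stood apart from the other cytoplasmic members. It had 7.59, 7.47, 7.63 and 7.77 with PMA, against 8.58, 8.67, 8.46 and 8.45 with vehicle. With DOC plus PMA it had 7.62, 7.66, 7.83 and 7.72, against 8.43, 8.67, 8.62 and 8.53 with DOC. All 8 arrays with PMA lay below all 8 without it, and the differences were -0.93 ± 0.0793 (0.526-fold, adjusted p = 3.42e-08, limma) and -0.85 ± 0.0793. A further AARS1 probe set gave -0.84 and -0.76.

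EPRS1 and QARS1 fell less. EPRS1, the joined glutamyl- and prolyl-tRNA synthetase, differed by -0.23 ± 0.0641 without DOC (adjusted p = 0.00769, limma) and by -0.19 ± 0.0641 with DOC (adjusted p = 0.0226). QARS1, the glutaminyl-tRNA synthetase, differed by -0.20 ± 0.0689 without DOC (adjusted p = 0.0224) and by -0.15 ± 0.0689 with DOC (adjusted p = 0.0881). Both sit in the multisynthetase complex, of whose 7 enzymes 2 were lower and 0 higher without DOC, with a median of -0.1. The 28.6% that were lower lay near the 29.3% of all genes, and 17.7% of all genes were higher. With arrays set to a common median EPRS1 differed by -0.15 (adjusted p = 0.0620) and QARS1 by -0.13 (adjusted p = 0.139). Leaving out replicate 1 of PMA or replicate 2 of vehicle lost the QARS1 call, with an adjusted p of 0.0860 and 0.0617. Leaving out replicate 1 of DOC brought the call in with DOC (adjusted p = 0.0267). The EPRS1 call with DOC was lost without DOC replicate 2, DOC replicate 3 or DOC plus PMA replicate 1 (adjusted p = 0.0632, 0.0538 and 0.0886). A common median lost it too (adjusted p = 0.0874, limma).

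The cytoplasmic rises were small. TARS1, the threonyl-tRNA synthetase, had 11.45, 11.34, 11.45 and 11.34 with PMA, against 11.24, 11.12, 11.15 and 11.35 with vehicle, and vehicle replicate 4 lay among the PMA arrays. The difference was 0.18 ± 0.0637 (1.13-fold, adjusted p = 0.0263, limma), and 0.10 ± 0.0637 with DOC, which did not pass. Its call was lost when replicate 1 or 3 of PMA was left out (adjusted p = 0.0705 and 0.0730), and likewise replicate 2 or 3 of vehicle (adjusted p = 0.0913 and 0.0757). GARS1, the glycyl-tRNA synthetase of both compartments, had 11.08, 11.18, 11.16 and 11.12 with PMA, against 11.00, 10.96, 11.00 and 11.00 with vehicle, without overlap. The difference was 0.14 ± 0.0555 (1.11-fold, adjusted p = 0.0399), and 0.14 ± 0.0555 with DOC (adjusted p = 0.0556). Leaving out any vehicle array, or PMA replicate 2, 3 or 4, lost the GARS1 call, with adjusted p up to 0.0907, and without PMA replicate 2 or without DOC replicate 1 the pair with DOC passed (adjusted p = 0.0481 and 0.0321).

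NARS1, the asparaginyl-tRNA synthetase and the member with the highest mean signal, did not pass in either pair. It had 11.39, 11.62, 11.51 and 11.44 with PMA, against 11.43, 11.43, 11.45 and 11.44 with vehicle. WARS1, the tryptophanyl-tRNA synthetase and a known interferon target, differed by 0.16 ± 0.0871 (adjusted p = 0.133, limma) and did not pass. It passed without vehicle replicate 1 (0.25, adjusted p = 0.0148) and after a common median (0.24, adjusted p = 0.0367). The mean of its probe sets gave 0.05 (adjusted p = 0.729), and the other WARS1 probe sets gave 0.04 and -0.04. FARSA, a subunit of the phenylalanyl-tRNA synthetase, differed by -0.14 ± 0.0662 and passed without vehicle replicate 4 (-0.19, adjusted p = 0.0296). The other cytoplasmic members that did not pass lay between -0.13 for VARS1 and 0.06 for CARS1.

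Further probe sets of the same genes bore on the choice of 1 probe set per gene. The 13 members that fell had 12 other probe sets above the filter, from 9 of the genes, and all 12 were lower with PMA. Of these, 10 passed when p-values were adjusted over all probe sets. The 3 members that rose had 5 others, of which 3 were higher and 1 passed, the second GARS1 probe set at 0.19 ± 0.0557.

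Class I and class II synthetases are unrelated in fold, and both classes occur in each compartment. Of 16 class II members 7 were lower and 2 higher with PMA, with a median of -0.173. Of 19 class I members 6 were lower and 1 higher, with a median of -0.1, where 29.3% of all genes were lower and 17.7% higher.

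For 13 amino acids the cytoplasmic and mitochondrial genes differ only in the final digit of the symbol, and these were paired. Phenylalanine, proline and glutamate also have members in both compartments, under other symbols, and were left out of the pairs. Without DOC, FARS2 differed by -0.34, against -0.14 for FARSA and -0.07 for FARSB. PARS2 and EARS2 differed by -0.75 and -0.48, against -0.225 for EPRS1. The PMA difference of the mitochondrial gene was below that of the cytoplasmic gene in 10 of the 13 pairs without DOC and in 11 with DOC, and the median gap was -0.214 without DOC. The gap was -1.10 for histidine, -0.87 for threonine, -0.56 for asparagine and -0.53 for isoleucine. Alanine ran the other way, by 0.55, since AARS1 fell further than AARS2, and methionine did so by 0.29. In 5 pairs (histidine, isoleucine, leucine, asparagine and valine) the mitochondrial gene was lower past the threshold and the cytoplasmic gene did not pass. These gaps carry no test.

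**Figure D3:**
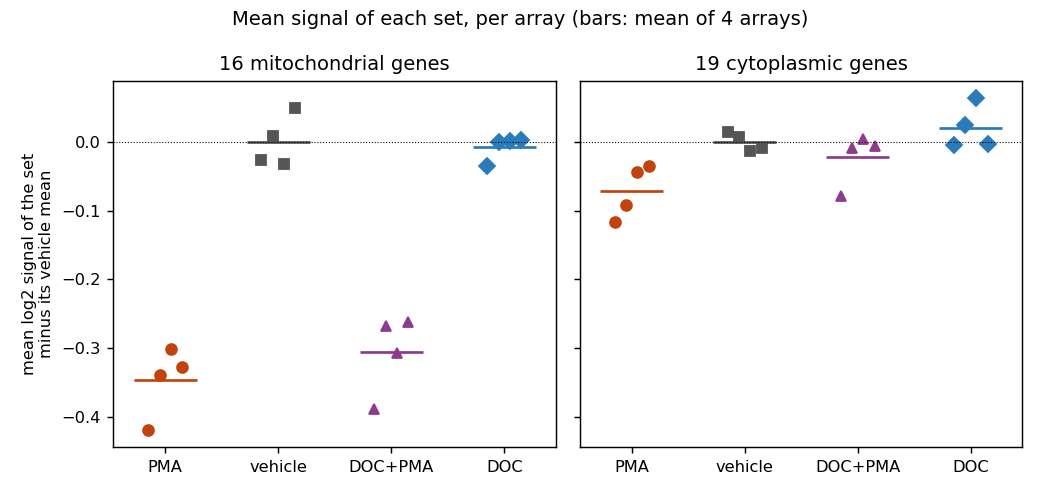
Mean log2 signal over the 16 mitochondrial and over the 19 cytoplasmic synthetases on each array, minus the mean of the vehicle arrays, with group means as bars. The PMA arrays of the mitochondrial set average -0.347 and the DOC plus PMA arrays -0.306, against -0.00785 for DOC, while the cytoplasmic set averages -0.0718, -0.0224 and 0.0201.

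Averaged over the 16 mitochondrial members, the log2 signal was 7.38 to 7.50 on PMA arrays, against 7.77 to 7.85 on vehicle arrays. It was 7.41 to 7.54 with DOC plus PMA, against 7.77 to 7.80 with DOC. The ranges were well apart in both pairs. The cytoplasmic average was 9.61 to 9.69 with PMA, against 9.71 to 9.74 with vehicle, and 9.65 to 9.73 with DOC plus PMA, against 9.72 to 9.79 with DOC. The cytoplasmic ranges lay close together, apart without DOC and overlapping with it. AARS1, at -0.93 without DOC and -0.85 with it, is part of this average. The cytoplasmic average without AARS1 was not computed.

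The effect of PMA was measured again in DOC-treated cells, on arrays that the first comparison did not use. Both comparisons came from the same fit with a shared spread. PMA and DOC plus PMA arrays of the same number also deviated together (correlations of 0.157 to 0.549), so the comparisons were not fully independent. DOC plus PMA against DOC gave 13 members past the threshold, all of them lower, where 42.6% of all genes passed, 15.7% upward and 26.9% downward. The mitochondrial members gave 11 lower and 0 higher, with a median of -0.258, and the cytoplasmic members 2 lower and 0 higher, with a median of -0.00224. Over all genes the median was -0.0478. Of the genes in the signal range of the mitochondrial members 31.3% were lower and 17.5% higher, and of those in the range of the cytoplasmic members 24.6% were lower and 20.9% higher. In both comparisons together 12 members were lower, 10 of them mitochondrial, and 0 were higher, against 23.7% and 13.4% of all genes. No member passed in opposite directions. Groups did not overlap and were lower for 12 members without DOC and for 11 with DOC, against 26.1% and 24.7% of all genes. They did not overlap and were higher for 1 and 2 members, against 16.2% and 14.2%.

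**Figure D4:**
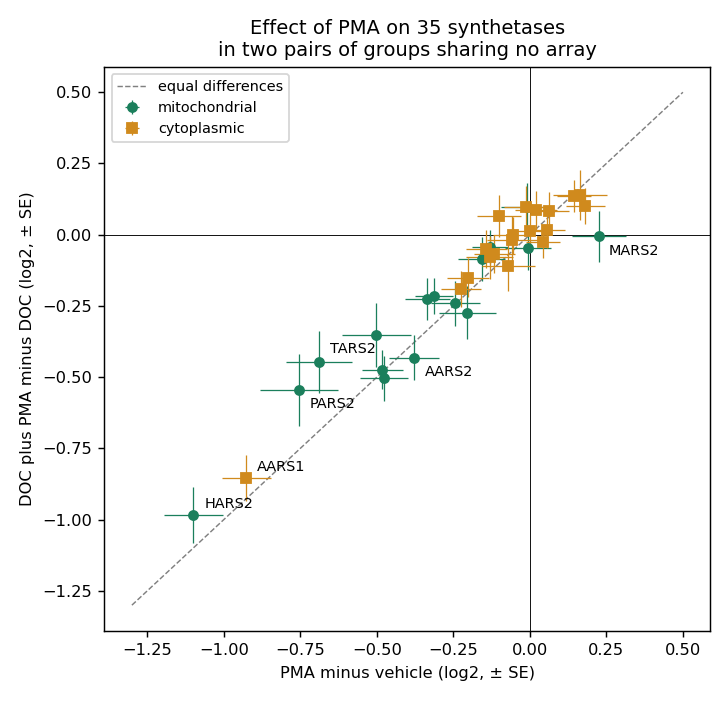
PMA minus vehicle (x axis) against DOC plus PMA minus DOC (y axis) for the 35 synthetases, log2 differences with standard errors, mitochondrial genes as circles and cytoplasmic genes as squares. The pairs share no array. HARS2 at -1.10 and -0.98 and AARS1 at -0.93 and -0.85 lie farthest from 0, and the dashed line marks equal differences.

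In both pairs, 7 members passed under each of the alternative settings that tested them, all downward: HARS2, AARS1, PARS2, TARS2, IARS2, EARS2 and AARS2. Together, DOC plus PMA against vehicle gave 14 members past the threshold, 12 of them lower and 2 higher (CARS1 and GARS1), where 43.8% of all genes passed, 17.5% upward and 26.3% downward. Of the 26 alternative settings, 13 lost the CARS1 call and 10 the GARS1 call, and among the falls 16 lost that of VARS2 and 14 that of QARS1. This comparison shares arrays with the others and adds no independent evidence.

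DOC itself changed 0 of the 35 members. DOC against vehicle gave differences of -0.10 for LARS1 to 0.10 for SARS2, with 0 members past an adjusted p of 0.05 in limma and 0 at an unadjusted p under 0.05, where 0.120% of all genes passed. For 33 of the 35, the 95% interval lay within 0.3 of 0 on either side. Over all 35, the lowest limit was -0.312 for NARS2 and the highest was 0.346 for PARS2. DOC plus PMA against PMA also gave 0 members, where 0.384% of all genes passed, with 29 positive and 6 negative differences. PARS2 was the 1 member at an unadjusted p under 0.05, higher by 0.29 ± 0.126 with DOC plus PMA than with PMA (unadjusted p = 0.0331, adjusted p = 1, limma). The interaction sets the change with DOC in PMA-treated cells against that in cells without PMA, and it gave 0 members at either threshold, where 0.0880% of all genes passed. Its values were -0.23 for MARS2 to 0.24 for TARS2, and their 95% intervals lay between -0.497 and 0.586, so changes of that size were not excluded for single members.

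The other lists are read against the 29.3% of all genes that were lower and the 17.7% that were higher with PMA. Of 8 tested genes that act on mitochondrial tRNAs, charged or not, 3 were lower and 1 higher, close to those shares. With DOC plus PMA against DOC the counts were 4 lower and 1 higher. GATB and QRSL1, subunits of the amidotransferase that turns glutamyl- into glutaminyl-tRNA after EARS2, differed by -0.60 ± 0.0911 and -0.38 ± 0.0683 (adjusted p = 2.87e-05 and 0.000181, limma). GATC, the other subunit, named here after its value was seen, differed by -0.01 ± 0.117 and did not pass. MTFMT, which formylates the methionyl-tRNA made by MARS2, differed by -0.54 ± 0.0907, and PUS1, a pseudouridine synthase, by 0.21 ± 0.0769. Of 9 mitochondrial translation factors 4 were lower and 1 higher in each pair: the initiation factors MTIF3 and MTIF2 differed by -0.62 ± 0.0629 and -0.60 ± 0.0580, TSFM, the exchange factor of TUFM, by -0.35 ± 0.0793, and the release factor MTRF1L by 0.75 ± 0.0841.

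Partners of the cytoplasmic enzymes and tRNA handling genes gave 1 higher and 2 lower of 9 tested. SEPSECS, which makes selenocysteine on its tRNA from the product of the seryl-tRNA synthetase, differed by -0.73 ± 0.0938 (adjusted p = 4.69e-06, limma). DTD1, which removes D-amino acids from tRNA, differed by -0.36 ± 0.0667, and POP1, a protein of RNase P, by 0.25 ± 0.0893. AIMP1, a scaffold of the multisynthetase complex, differed by 0.04 ± 0.0725 and did not pass, and the scaffolds AIMP2 and EEF1E1 were not analysed here. Of 7 cytoplasmic elongation factors 1 was lower, EEFSEC, which brings selenocysteyl-tRNA to the ribosome, at -0.39 ± 0.105.

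**Figure D5:**
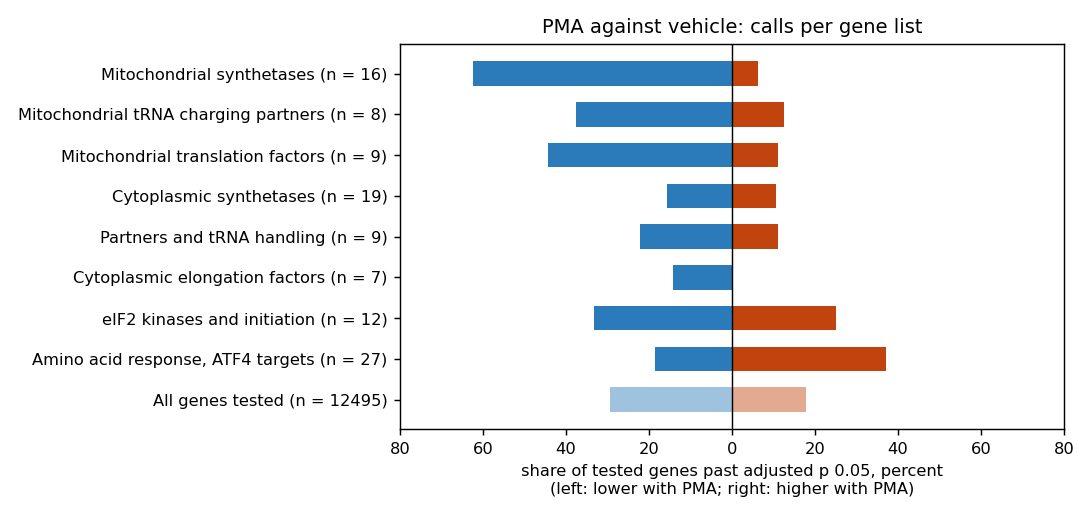
Share of the tested genes of each list that passed an adjusted p of 0.05 for PMA against vehicle, lower to the left and higher to the right, with all 12495 genes at the bottom. The mitochondrial synthetases have the longest bar to the left, with 10 of 16, and the ATF4 list the longest to the right, with 10 of 27.

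The amino acid response list gave more rises than falls. Of 27 tested ATF4 targets and related genes, 10 were higher and 5 lower with PMA, with a median of 0.136, and 13 were higher and 3 lower with DOC plus PMA against DOC. ATF4 itself differed by 0.36 ± 0.0580 (adjusted p = 5.82e-05, limma). The largest rises were PPP1R15A, a phosphatase subunit that acts on eIF2, at 1.01 ± 0.134, and the amino acid transporters SLC7A1 at 1.00 ± 0.0782 and SLC7A5 at 0.81 ± 0.0838. The largest falls were VLDLR, a lipoprotein receptor, at -1.49 ± 0.107, DDIT4, an mTORC1 inhibitor, at -1.19 ± 0.105, and NUPR1 at -0.35 ± 0.103. ASNS, CHAC1, TRIB3 and DDIT3, well-known ATF4 targets, did not pass between PMA and vehicle: ASNS differed by 0.14 ± 0.0596, CHAC1 by 0.14 ± 0.0851, TRIB3 by 0.19 ± 0.0988 and DDIT3 by 0.42 ± 0.182. With DOC, TRIB3 and DDIT3 passed, at 0.28 ± 0.0988 and 0.77 ± 0.182. Of 12 eIF2 kinases and initiation factors 3 were higher and 4 lower: EIF2S1 differed by 0.45 ± 0.0673, the kinases EIF2AK4 and EIF2AK1 by -0.44 ± 0.0922 and -0.40 ± 0.0830, and EIF2AK3 by 0.30 ± 0.108. EIF2S3 differed by 0.21 ± 0.0792 and EIF2B1 by -0.30 ± 0.0634.

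The element through which ATF4 acts with C/EBP partners, TGATGNAA, was searched on both strands of RefSeq's promoter windows in GRCh38.p14, 250 bases before to 50 after each start. A gene with several starts has several windows (35116 windows for 27305 genes), and a match in any of them counted. Windows were found for 30 of the 35 members, all but LARS1, YARS1, VARS1, AARS2 and VARS2. The element was found in 8 of the 30 (26.7%), against 2.79% of the 10257 tested genes with a window and 4.46% of all genes in the table. These were 7 of 16 cytoplasmic members (AARS1, CARS1, GARS1, IARS1, MARS1, NARS1 and TARS1) and 1 of 14 mitochondrial ones (YARS2). The matches of the 3 that passed with PMA, of NARS1 and of the mitochondrial member are shown on the strand of the gene, with the element in capitals.
AARS1, chr16:70289675-70289704, minus strand: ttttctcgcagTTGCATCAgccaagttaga
GARS1, chr7:30594834-30594863, plus strand: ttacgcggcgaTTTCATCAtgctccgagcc
TARS1, chr5:33440956-33440985, plus strand: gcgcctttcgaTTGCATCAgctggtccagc
NARS1, chr18:57621804-57621833, minus strand: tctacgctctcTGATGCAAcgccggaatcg
YARS2, chr12:32756076-32756105, minus strand: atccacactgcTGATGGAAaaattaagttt
Among the 7 cytoplasmic genes with the element, AARS1 fell with PMA, GARS1 and TARS1 rose and the other 4 did not pass. With DOC neither rise passed (adjusted p = 0.0556 for GARS1 and 0.220 for TARS1, limma). Whether the element bears on these changes was not tested. A match describes these letters and does not show a bound site.

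The AP-1 element TGANTCA was found in 0 of the 30 members with a window, against 7% of the tested genes. The E-box CACGTG was in 4 (13.3%, against 12.6%): CARS2, EARS2, IARS1 and MARS2. The ETS core CCGGAAG was in 16 (53.3%, against 21.4%). Among members that fell with PMA, EARS2, HARS2, PARS2 and TARS2 carried it. The windows of AARS1, EPRS1, FARS2, IARS2, LARS2, NARS2 and QARS1, which also fell, did not. GARS1, TARS1 and MARS2, which rose, all carried it, as did HARS1, which did not pass. Among tested genes with a window it was in 22% of those lower and 21.6% of those higher with PMA. It was in 7 of 14 mitochondrial and 9 of 16 cytoplasmic members with a window. These counts say nothing of elements outside the windows.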

How the data were processed

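The authors deposited log2 RMA signals of 16 Affymetrix PrimeView arrays (49293 probe sets), made in Expression Console of Affymetrix (per the submitters' processing notes), with versions not given in the sources used here. Per the labels' protocols, a 3' IVT kit turned 100 ng of total RNA into biotinylated cRNA. RMA forces all arrays to a common distribution, which hides any shift common to the whole transcriptome. The table held 0 columns of other samples. Arrays of a group correlated at 0.991 to 0.997. Arrays have no read depth, and precision is limited by the 4 arrays of each group.

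From these log2 values, the following was computed. The platform annotation paired 44988 probe sets with 1 gene, 1832 with several and 2473 with none, and 44961 matched a current gene by identifier. Probe sets had to reach their array's 40th percentile (4.05 to 4.12) on 4 arrays or more, and 30613 did. Group means were fitted to all 16 arrays with limma 3.58.1 (lmFit, eBayes) in R 4.3.3, with Benjamini-Hochberg adjustment over 12495 genes, two-sided, at an adjusted p under 0.05. Differences are given ± SE from this fit. The fit was tested on simulated data. Promoter windows came from RefSeq.

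The members, lists and tests were chosen with earlier results of these data known, and these lists are no independent evidence. Any member could be named. Values on every array are given for up to 6 rises (3 passed) and the 6 largest falls past the threshold for PMA against vehicle, and for the members with the highest and lowest mean signal, with HARS1 added as the neighbour of HARS2. From other lists, up to 3 rises and 3 falls and a set of fixed genes are named. Whether equal replicate numbers mark a shared culture or day is not given in the labels. Over all genes, the residuals of same-number arrays correlated above 0.1 in 4 of 4 pairs of DOC plus PMA and PMA (0.157 to 0.549), and in at most 3 of 4 elsewhere, so the numbers were taken, from the data alone, to pair those 2 groups. Alternatives covered the filter, the probe set, the scaling, array weights, the replicate block, the arrays in the fit, the eBayes prior and each array left out.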

Additional observations from a re-analysis of the deposited data

Results flagged for a closer look

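Within each group of 4 arrays, each member's highest and lowest array was set against its neighbours by Dixon's ratio at its 95% critical value. Of 140 checks (35 members in 4 groups) 6 exceeded it, where chance gives about 7. HARS2 had 6.5834 on DOC replicate 1, below 6.9275 on the next array, and QARS1 had 9.6254 on the same array, below 9.8072. The other 4 were FARSA at 7.9614 on vehicle replicate 4, IARS1 at 11.276 on vehicle replicate 3, CARS1 at 8.7894 on DOC plus PMA replicate 4 and SARS1 at 9.9148 on DOC plus PMA replicate 3, the only one above its group. Without DOC replicate 1, QARS1 passed for DOC plus PMA against DOC (-0.20, adjusted p = 0.0267, limma), and without vehicle replicate 4, FARSA passed for PMA against vehicle (-0.19, adjusted p = 0.0296).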

How the results depend on the processing

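The members called for PMA against vehicle numbered 16, with 12 to 16 when single arrays were left out and 13 to 17 under the other settings. For DOC plus PMA against DOC they numbered 13 (10 to 14, and 9 to 15), and for DOC plus PMA against vehicle 14 (10 to 14, and 10 to 16). DOC against vehicle, the interaction, and DOC plus PMA against PMA gave 0 under every setting run. No called member changed sign under any setting. With the replicate block over all 16 arrays, 17, 13 and 14 members passed in the PMA comparisons, and 0 in those of DOC. With the block within the DOC plus PMA and PMA arrays, chosen after seeing the data, 0 passed between those groups. The block changed 3 calls of single members: SARS2 passed for PMA against vehicle (adjusted p = 0.0410), and for DOC plus PMA against vehicle WARS1 passed (0.0337) and VARS2 did not (0.0593).

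Counts by compartment depended more on the setting. For PMA against vehicle, mitochondrial members lower were 10 (9 to 11 with single arrays left out) and mitochondrial members higher were 1 (0 to 1). The count of mitochondrial members higher was 0 without a filter, with the mean of a gene's probe sets, with only the 2 groups compared and without the 3 arrays that deviate together. Cytoplasmic members higher were 2 (0 to 2), with 1 without a filter, 0 with only the 2 groups compared and 1 without the 3 arrays. Cytoplasmic members lower were 3 (2 to 4), with 1 after a common median. For DOC plus PMA against DOC, mitochondrial members lower were 11 (9 to 11), with 7 after cyclic loess. Cytoplasmic members lower were 2 (1 to 3), with 1 after a common median, and cytoplasmic members higher were 0 (0 to 1), with 2 for the mean of a gene's probe sets and 1 each with the 60th percentile filter, a common median, array weights, the trended robust prior and without the 3 arrays. For DOC plus PMA against vehicle, cytoplasmic members higher were 2 (0 to 2), with 0 without a filter, 1 after cyclic loess, 4 after a common median and 1 with only the 2 groups compared. Cytoplasmic members lower were 2 (1 to 2), with 1 without a filter, after cyclic loess and after a common median. The cause was not tested.

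Scaling moved the background too: higher calls were 37.6% of all calls for PMA against vehicle, 46.6% after cyclic loess and 52.2% after a common median. The mitochondrial median was -0.325, -0.244 and -0.25 under these 3 scalings. PARS2 did not pass the 60th percentile filter and was not tested there. The interaction with only the groups compared was not run, since it needs all 4.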

Other observations

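Several other members share a start region with a gene on the opposite strand, within 1000 bases between starts in RefSeq's GRCh38.p14 table. Each member's value stands before that of its neighbour. FARS2 and LYRM4, an iron-sulphur cluster protein, start 57 bases apart: FARS2 differed by -0.34 between PMA and vehicle (adjusted p = 0.00103, limma), against 0.03 ± 0.0748 for LYRM4, which did not pass. EARS2 differed by -0.48, against -0.05 ± 0.0832 for UBFD1, at a distance of 377 bases. KARS1 differed by -0.12 and did not pass, against 0.33 ± 0.0656 for TERF2IP, a telomere protein (adjusted p = 0.000407). RARS2 differed by -0.13 and did not pass, against -0.28 ± 0.0778 for ORC3, a subunit of the origin recognition complex (adjusted p = 0.00664). WARS1 differed by 0.16 and did not pass, against -0.31 ± 0.0971 for WDR25 (adjusted p = 0.0149), which differed by -0.11 with DOC plus PMA against DOC and did not pass there (adjusted p = 0.407). SARS2 differed by -0.21, against -0.14 ± 0.0813 for MRPS12, a mitochondrial ribosomal protein, and neither passed.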
